A study of Homo sapiens with 18 samples.

Results

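RNAPII occupies promoters in cells whose TFIIH has been inhibited, and the promoters at which it was listed were compared between untransformed and transformed cells of the MCF10A-ErSrc line, a non-tumorigenic human breast epithelial line. The members are the RNAPII ChIP-Seq peaks listed for NT + TPL cells (8653 peaks) and for TAM + TPL cells (8464 peaks), in all 17117 of the 39395 peaks in the 4 lists of the series. The lists were deposited as peaks that hold a transcription start site (TSS), and the names of the peaks in both carry the same cutoff of 0.02. By the annotation used here, 1535 of the NT + TPL and 1433 of the TAM + TPL peaks hold no TSS of a canonical transcript. All groups carry a v-Src kinase fused to an estrogen receptor domain, which tamoxifen activates. TAM cells had been transformed by tamoxifen and NT cells had not. Both were then kept for 4 h in DMSO or in triptolide (TPL, labelled TPL-125nM). RNA-Seq of the same 4 conditions gives 2 libraries per group. The labels give 2 ChIP-Seq samples per condition but 1 peak list for each, and the peak names carry the tag of replicate 1, so that a difference between the lists has no replicate check, and a difference between states cannot be told apart from a difference between libraries. A list gives the start and end of each peak and no height.

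Transcription by RNAPII starts when the polymerase and the general factors assemble at a promoter and the XPB translocase of TFIIH opens the DNA. TPL binds XPB covalently and blocks that step. After initiation RNAPII commonly pauses a short distance downstream of the TSS, until P-TEFb releases it into the gene body. A promoter peak can therefore hold assembling, initiating or paused RNAPII, and a peak that stretches into the gene holds elongating RNAPII as well.

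The RNA-Seq libraries held 7461309 to 8349448 expected counts each. Of 10 mammary epithelial markers, 9 were at 1 FPKM or more in all 8 libraries. Their summed level was 9724 to 11949 FPKM in the NT + TPL libraries and 2395 to 2572 in the TAM + TPL libraries, and KRT5 and LAMB3, described below for their peaks, are among them. The 6 fibroblast markers summed to at most 12.95 FPKM. The 4 leukocyte markers with an entry summed to 56.6 to 109 FPKM in NT and NT + TPL and to 288 to 480 in TAM and TAM + TPL, with CD3E under 1 FPKM throughout. Most of this sum was CD68, described below as a lysosomal membrane protein, with a mean of 215 FPKM over the 8 libraries. Endothelial markers summed to at most 2.45 FPKM and those of hormone-receptor luminal cells to 40.9 to 259, with PGR under 1. The part of these markers in the results was not tested.

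Promoter sequences of 11 genes with a peak over the TSS in 1 of the TPL lists only are given first, as examples. Each is the stretch of up to 120 bases before the TSS that lies in no annotated exon, on GRCh37 (the hg19 build of the peak lists), 5′ to 3′ on the strand of the gene. Capitals mark matches to GGGCGG, the core of a GC box, and to CCAAT, or to their reverse complements CCGCCC and ATTGG, and matches may overlap. The 6 genes with a TAM + TPL peak only were chosen for their RNA or their place in the NF-kB list:
SERPINE2, chr2:224904036-224904123, minus strand: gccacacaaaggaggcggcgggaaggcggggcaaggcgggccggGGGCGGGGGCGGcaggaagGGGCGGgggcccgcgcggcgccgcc
TNC, chr9:117880487-117880556, minus strand: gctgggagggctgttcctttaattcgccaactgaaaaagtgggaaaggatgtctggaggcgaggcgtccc
SERPINB3, chr18:61329128-61329247, minus strand: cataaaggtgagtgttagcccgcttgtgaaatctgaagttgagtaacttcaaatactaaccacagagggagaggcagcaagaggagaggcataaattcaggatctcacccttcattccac
LAMB3, chr1:209825771-209825890, minus strand: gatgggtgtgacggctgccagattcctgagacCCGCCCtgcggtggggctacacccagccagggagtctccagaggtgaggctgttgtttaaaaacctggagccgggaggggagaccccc
CXCL2, chr4:74964914-74965032, minus strand: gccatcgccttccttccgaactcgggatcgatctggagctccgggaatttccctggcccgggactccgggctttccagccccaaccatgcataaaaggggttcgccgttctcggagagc
BCL3, chr19:45251845-45251951, plus strand: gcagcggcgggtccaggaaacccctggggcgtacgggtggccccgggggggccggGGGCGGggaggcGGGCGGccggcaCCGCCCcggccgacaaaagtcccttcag
The 5 genes with an NT + TPL peak only were chosen in the same way, with 2 genes of the MCM helicase from the replication list:
TRNP1, chr1:27320063-27320182, plus strand: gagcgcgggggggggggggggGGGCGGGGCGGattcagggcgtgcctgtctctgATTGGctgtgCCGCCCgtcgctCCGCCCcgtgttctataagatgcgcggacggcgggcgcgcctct
PSAT1, chr9:80911921-80912040, plus strand: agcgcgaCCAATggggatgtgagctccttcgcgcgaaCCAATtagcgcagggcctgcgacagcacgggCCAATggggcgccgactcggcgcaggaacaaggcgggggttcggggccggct
CDCA8, chr1:38158068-38158152, plus strand: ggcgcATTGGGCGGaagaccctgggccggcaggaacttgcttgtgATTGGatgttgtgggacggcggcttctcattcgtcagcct
MCM2, chr3:127317134-127317252, plus strand: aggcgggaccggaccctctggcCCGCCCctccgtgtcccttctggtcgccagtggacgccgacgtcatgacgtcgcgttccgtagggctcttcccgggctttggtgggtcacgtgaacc
MCM6, chr2:136634014-136634133, minus strand: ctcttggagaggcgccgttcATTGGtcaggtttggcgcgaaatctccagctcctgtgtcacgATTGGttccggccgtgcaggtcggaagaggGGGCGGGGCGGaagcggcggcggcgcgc

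The listed TAM + TPL peak covers 56 of the 88 bases shown for SERPINE2 and all bases shown for TNC, SERPINB3, LAMB3, CXCL2 and BCL3. The NT + TPL peak covers 55 of the 119 bases shown for MCM2, 117 of 120 for TRNP1 and all bases shown for PSAT1, CDCA8 and MCM6. These 11 were picked for what follows and do not stand for their classes. A match is a run of letters and not a measured site. Over the window from 250 bases before to 50 bases after the TSS, CCAAT lay in 50.7% of the 747 protein-coding promoters with an NT + TPL peak only, in 35.1% of the 576 with a TAM + TPL peak only, in 38.3% of the 6852 with both and in 36.0% of all 19862. GGGCGG was in 76.8%, 81.6%, 76.2% and 61.5% of them in the same order. CCGGAAG, the core of ETS factor sites, was in 17.9% and 14.2% of the promoters with a peak in 1 list, in 29.1% of those with both and in 14.2% of all. TATAAA was in 4.55%, 5.21%, 4.67% and 9.63%, and TGANTCA, the AP-1 core, was in 4.42%, 5.56%, 2.99% and 5.41%. TTCCNGGAA, the STAT core, was in 0.937%, 1.56% and 1.39% of the promoters of the NT + TPL only, TAM + TPL only and both classes. All motifs were searched on both strands. The median GC content of the window was 69.3% for genes with a TAM + TPL peak only, against 65.7% for NT + TPL only, 66.0% for both and 63.7% for all.

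Most promoter peaks were listed in both states under TPL. Of the NT + TPL peaks, 7428 overlapped a TAM + TPL peak by at least 1 base, which is 85.8% (95% Wilson interval 85.1 to 86.6) of that list. Of the TAM + TPL peaks, 7585 overlapped an NT + TPL peak, or 89.6% (88.9 to 90.2). The remaining 1225 NT + TPL peaks and 879 TAM + TPL peaks had no counterpart. The intervals cover counting error only. With an overlap of at least 50% of both peaks required, 6196 pairs remained, which is 71.6% of the NT + TPL and 73.2% of the TAM + TPL list.

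Peaks listed in 1 state only were narrow. Their median width was 280 bases in the NT + TPL list and 243 in the TAM + TPL list, against 607 and 488 bases for peaks that overlapped one of the other list. Only 16.7% of the NT + TPL peaks without counterpart and 10.5% of the TAM + TPL ones were 500 bases or wider. Of the peaks of at least 500 bases, 95.8% in the NT + TPL list and 97.6% in the TAM + TPL list overlapped a peak of any width in the other, a comparison added after seeing the data. No canonical TSS lay in 676 of the 1225 NT + TPL and 377 of the 879 TAM + TPL peaks without counterpart, against 859 of 7428 and 1056 of 7585 overlapping ones. Among peaks with a canonical TSS, divergent promoters, with TSSs on both strands, lay in 8.20% of the NT + TPL and 6.18% of the TAM + TPL peaks without counterpart and in 24.6% and 22.4% of the overlapping ones.

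**Figure D1:**
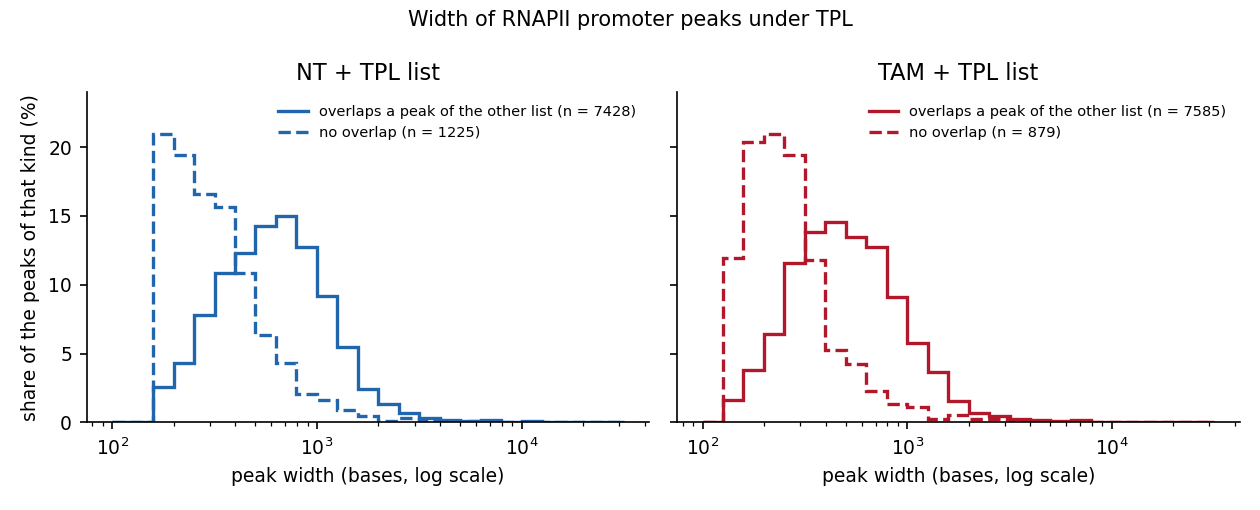
Width of the listed RNAPII peaks in bases (log axis) in the NT + TPL list (left) and the TAM + TPL list (right), as the share of peaks of each kind, with peaks that overlap one of the other list as solid lines and peaks without overlap as dashed lines. The dashed lines peak to the left of the solid ones, with medians of 280 against 607 bases and of 243 against 488 bases.

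Many of the peaks without counterpart lay where RNAPII was listed in DMSO. Of the 1225 NT + TPL peaks, 70.4% overlapped a peak of the NT list and 26.9% overlapped a peak of neither DMSO list. Of the 879 TAM + TPL peaks, 77.2% overlapped a TAM peak, 80.5% overlapped an NT peak and 11.5% overlapped neither. The names in the TAM list carry another cutoff than the other 3, a q of 0.1, and its peaks had a median width of 406 bases against 632 in the NT list. Shares of overlap with the 2 DMSO lists are thus not on the same footing.

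Peaks of the TAM + TPL list were narrower than those of the NT + TPL list at the same place. Over 6881 pairs in which 1 peak of each list overlapped only the other, the median width was 594 bases in NT + TPL and 488 in TAM + TPL. The TAM + TPL peak was narrower in 4829 pairs (70.2%), wider in 2034 (29.6%) and equal in 18. The median difference was -75 bases (95% interval from the ranks of the pairs, -79 to -71), and the middle 50% of the pairs lay between -213 and 18 bases. That interval covers the spread over peaks of 1 list per condition and not that between cultures or libraries. Of the NT + TPL peaks, 293 lay over 2 or more TAM + TPL peaks, and 136 TAM + TPL peaks did the reverse. The highest number in the names of the peaks was 19858 for NT + TPL and 14789 for TAM + TPL. The narrowest listed peak was 169 bases wide in NT + TPL and 143 in TAM + TPL. The part of that lower limit, of the number of peaks called and of the reads behind it in the widths was not tested.

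At 4305 genes whose peak held no other canonical TSS in either list, peaks reached further into the gene than before it. The NT + TPL peak began a median of 220 bases before the TSS and ended 290 bases after it, and 67.2% of these peaks reached further downstream than upstream. The TAM + TPL peak began 189 bases before the TSS and ended 226 bases after it, with 64.8% reaching further downstream. The median difference at the same gene was -23 bases upstream and -33 bases downstream, so that peaks were shorter on both sides in TAM + TPL.

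The widest peak of each list lay over another gene, while MAT2A and SNHG5 were among the 5 widest of both. HNRNPA2B1, which encodes an RNA-binding hnRNP protein, had the widest NT + TPL peak, at chr7:26215906-26240900, of 24995 bases. It reached 24460 bases downstream of the TSS, while the TAM + TPL peak was 2905 bases wide. Peaks were set against TSSs and not against gene ends, so that a wide peak may run past the gene named. SRSF7, a splicing factor, had peaks of 11493 bases in NT + TPL and 2047 in TAM + TPL, and HNRNPH1 had peaks of 11819 and 3741 bases. Among the pairs named by the rule, the reverse held at EPHA2, a receptor tyrosine kinase of ephrin signalling, with 1420 bases in NT + TPL and 13189 in TAM + TPL at chr1:16469751-16482939. POLR2A, the largest subunit of RNAPII itself, had a peak of 1708 bases in NT + TPL and of 8607 in TAM + TPL. RGS2, a regulator of G protein signalling, had 724 and 7268 bases. MAT2A, which makes S-adenosylmethionine, had wide peaks in both lists, of 12488 and 10923 bases. So did HEXIM1, the inhibitor of P-TEFb, with 4419 and 4882 bases, and the snoRNA host SNHG5, with 12555 and 10231.

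Setting these widths against the DMSO lists showed that EPHA2 and POLR2A were wide in TAM + TPL alone. EPHA2 peaks were 1590 bases wide in NT and 1440 in TAM, and POLR2A peaks 1400 and 965. RGS2 was already wide in TAM cells, at 7220 bases, against 1600 in NT. HNRNPA2B1 had 11553 bases in NT and 4175 in TAM, and SRSF7 2167 and 1221. Because the TAM list carries another cutoff, its widths, here and below, are not on the same footing as those of the other lists.

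**Figure D2:**
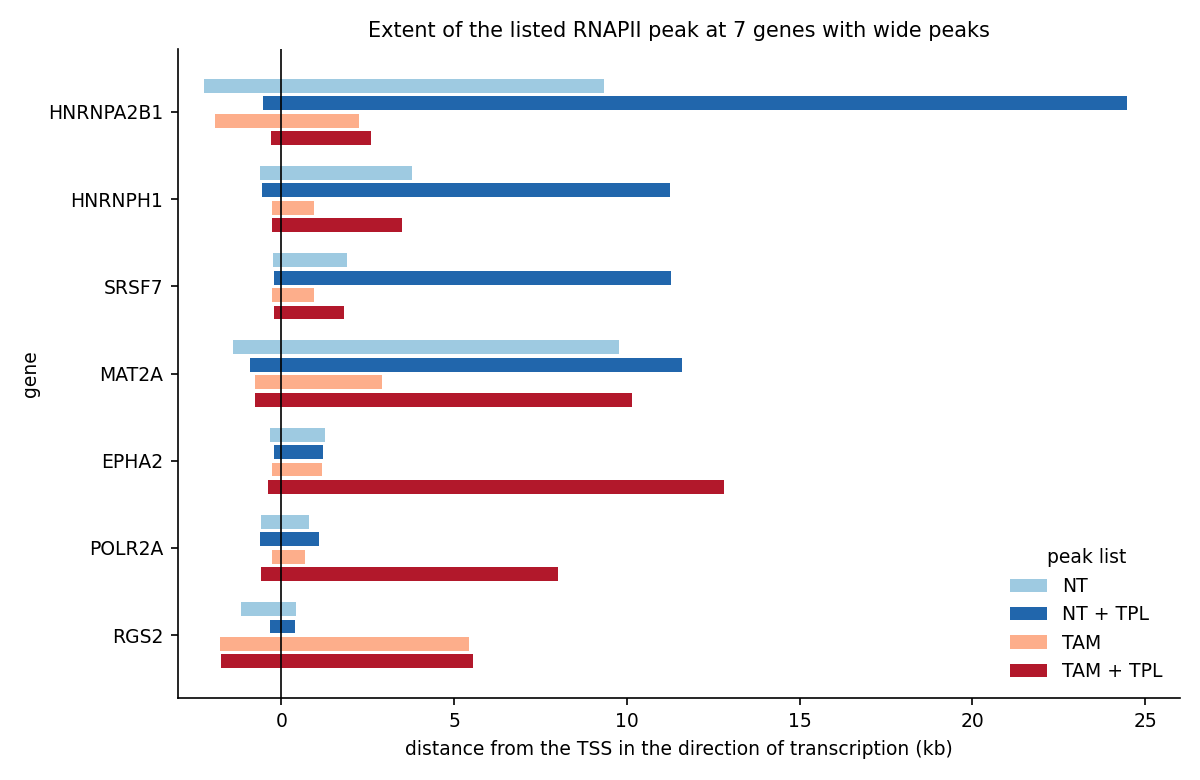
Extent of the listed RNAPII peak at 7 genes in the 4 lists, as the distance from the TSS in the direction of transcription in kb, with 1 bar per list. The NT + TPL bars are the longest at HNRNPA2B1, HNRNPH1 and SRSF7, the TAM + TPL bars are the longest at EPHA2 and POLR2A, and the TAM and TAM + TPL bars are both long at RGS2.

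RNA of these genes was compared in the same way. RNA levels and their changes with TPL, here and below, are relative to the other RNAs of a library and are not amounts per cell. POLR2A RNA was at 71.3 and 78.0 FPKM in NT and 527 and 268 in NT + TPL. In the transformed cells it was at 84.4 and 80.2 FPKM without and 563 and 398 with TPL. It was thus higher with TPL in both states (log2 fold change 2.39, adjusted p = 0.00187 in NT and 2.50, adjusted p = 0.00184 in TAM, quasi-likelihood test of edgeR, Benjamini-Hochberg adjusted), and the TPL libraries of the 2 states overlapped. EPHA2 RNA was at 149 and 94.0 FPKM in NT + TPL and at 193 and 179 in TAM + TPL, with an adjusted p of 0.177 between them. RGS2 RNA was at 31.6 and 34.1 FPKM in NT + TPL and at 72.5 and 89.3 in TAM + TPL, a log2 fold change of 1.27 (adjusted p = 0.00572), which was 1.15 without TAM + TPL replicate 2. RGS2 fell with TPL by 2.41 on the log2 scale in NT cells and by 2.42 in TAM cells. SRSF7 RNA was at 8.80 and 8.14 FPKM in NT + TPL, where its peak was wide, against 51.5 and 46.5 in NT, and at 11.1 and 11.8 in TAM + TPL against 43.2 and 48.7 in TAM. HNRNPA2B1 RNA was at 45.6 and 49.2 FPKM in NT + TPL and at 69.9 and 81.1 in TAM + TPL (log2 fold change 0.64, adjusted p = 0.0436). That adjusted p was 0.0799 without NT + TPL replicate 1, 0.112 without TAM + TPL replicate 1 and 0.223 without TAM + TPL replicate 2.

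Each gene was then placed by whether the TSS of its canonical transcript lay in a listed peak. Of 55051 genes, 8170 had a peak in both TPL lists, 994 in the NT + TPL list only and 722 in the TAM + TPL list only. Among 19881 protein-coding genes these classes held 6853 (34.5%), 751 (3.78%) and 578 (2.91%). Long non-coding RNAs made up 218 of the genes with an NT + TPL peak only and 133 of those with a TAM + TPL peak only. Of the genes with a peak in either list, the share with an NT + TPL peak only ran from 5.66% on chromosome 21 to 17.9% on chromosome X. The share with a TAM + TPL peak only ran from 4.59% on chromosome 1 to 14.2% on chromosome 21.

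A peak over the TSS in 1 list only did not always mean that the promoter was free in the other. For 453 of the 994 genes with an NT + TPL peak only (45.6%), a TAM + TPL peak lay within 1000 bases of the TSS. For the 722 genes with a TAM + TPL peak only, an NT + TPL peak lay that near for 233 (32.3%). Genes of both classes mostly had a peak in DMSO as well. Of those with an NT + TPL peak only, 785 (79.0%) had a TSS in the NT list, 557 (56.0%) in the TAM list and 178 (17.9%) in neither. Of those with a TAM + TPL peak only, 604 (83.7%) were in the NT list, 555 (76.9%) in the TAM list and 71 (9.83%) in neither, and 47 (6.51%) were in the TAM list without being in the NT list. In comparison, 97.7% of the genes with both TPL peaks were in the NT list and 91.5% in the TAM list.

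Genes of the lists were counted in the 2 classes. Of 30 genes of the IL6-STAT3 and NF-kB loop, which sustains transformation of this line, 14 had a peak in both TPL lists, 2 in NT + TPL only and 6 (20%) in TAM + TPL only, against 2.91% of all protein-coding genes. Of 30 genes of G1/S progression and replication, 14 were in both, 9 (30%) in NT + TPL only, against 3.78%, and 1 in TAM + TPL only. A peak in at least 1 TPL list lay at 73.3% of the first list and 80% of the second, against 41.2% of all protein-coding genes. The shares in 1 list only include genes without any peak, so that among genes with a TPL peak the contrast is smaller. The machinery that TPL acts on was mostly listed in both states: 9 of 10 TFIIH subunits, 11 of 12 RNAPII subunits, all 21 initiation factors, and 23 of 30 factors of pausing and elongation. Of all protein-coding genes, 34.5% had both peaks, and most of those with any TPL peak had both, so that this is not particular to the machinery. NELFA, a subunit of the pausing factor NELF, had an NT + TPL peak over its TSS and a TAM + TPL peak 213 bases away, and POLR2H had the reverse, with an NT + TPL peak 405 bases away.

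**Figure D3:**
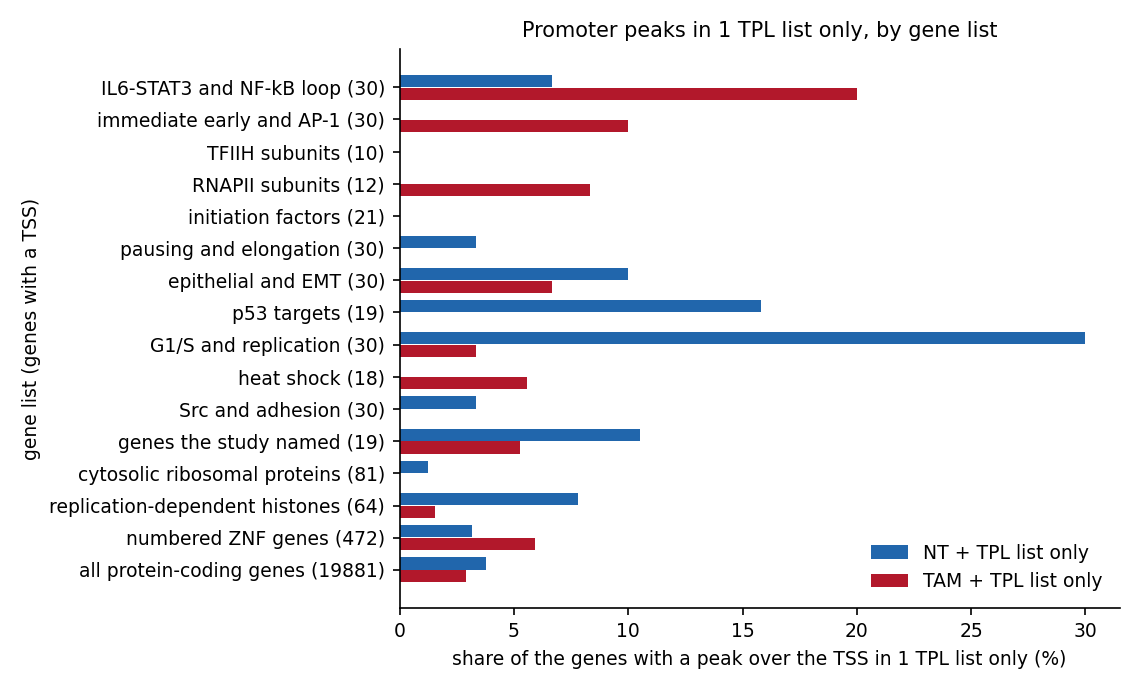
Share in percent of the genes of each list with a listed RNAPII peak over the TSS in the NT + TPL list only (blue) or the TAM + TPL list only (red), with the number of genes in parentheses. The G1/S and replication list reaches 30% for NT + TPL only and the IL6-STAT3 and NF-kB list 20% for TAM + TPL only, beside 3.78% and 2.91% of all protein-coding genes. Shares are of all genes of a list, with or without any TPL peak.

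The 6 genes of the IL6-STAT3 and NF-kB list with a TAM + TPL peak only were IL6R, the IL6 receptor, RELB, an NF-kB subunit, BCL3, an IkB-family coactivator, and the chemokines CXCL2, CXCL3 and CCL20. None of them had an NT + TPL peak within 1000 bases. In DMSO, 5 of the 6 had a peak in the NT list and 4 in the TAM list. CXCL2 had a peak of 3772 bases in NT, 4307 in TAM and 340 in TAM + TPL. CCL20 had 5974, 6111 and 1242 bases in the same lists. BCL3 had 1917, 2322 and 445.

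Of these 6 genes, BCL3 and CXCL3 had higher RNA in TAM + TPL than in NT + TPL at an adjusted p of 0.05, and CXCL2 did not pass. CXCL2 fell from 181 and 167 FPKM in NT to 8.34 and 3.69 in NT + TPL, and from 388 and 398 in TAM to 5.40 and 4.94 in TAM + TPL. It fell by 4.87 on the log2 scale in NT (adjusted p = 0.000232) and by 6.30 in TAM (adjusted p = 0.000234), and the TPL libraries of the 2 states overlapped. BCL3 was at 3.14 and 1.63 FPKM in NT + TPL and at 13.8 and 9.07 in TAM + TPL (log2 fold change 2.24, adjusted p = 0.011, and 0.0729 without TAM + TPL replicate 1). CXCL3 was at 1.86 and 1.71 FPKM in NT + TPL and at 5.92 and 3.88 in TAM + TPL (log2 fold change 1.44, adjusted p = 0.0233). Without NT + TPL replicate 1, NT + TPL replicate 2 or TAM + TPL replicate 1, the adjusted p of CXCL3 was 0.0732, 0.0843 or 0.105. CCL20 was at 12.7 and 42.7 FPKM in NT + TPL and at 88.4 and 95.7 in TAM + TPL, with an adjusted p of 0.1. IL6R and RELB had adjusted p values of 0.951 and 0.203.

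The 9 genes of the G1/S and replication list with an NT + TPL peak only included 5 of the MCM helicase (MCM2, MCM4, MCM5, MCM6 and MCM7), its loading factor CDT1 and its cofactor CDC45. The others were TYMS, the thymidylate synthase, and RBL1, a pocket protein of the retinoblastoma family. All 9 had a peak in the NT list and 6 in the TAM list. For 5 of them, MCM4, MCM7, CDT1, TYMS and CDC45, a TAM + TPL peak lay within 1000 bases of the TSS, at 37 to 626 bases. For MCM2, MCM5, MCM6 and RBL1 the nearest lay 7580 to 108257 bases away.

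None of the 9 was called in either direction. MCM2 RNA was at 1.92 and 1.87 FPKM in NT + TPL and at 3.85 and 4.37 in TAM + TPL. It was higher in TAM + TPL than in NT + TPL by 1.09 on the log2 scale (adjusted p = 0.0324), under the fold that a call requires. That adjusted p was between 0.0747 and 0.178 when any of the 4 TPL libraries was left out. MCM6 was at 2.25 and 2.76 FPKM in NT + TPL and at 4.22 and 4.64 in TAM + TPL, with an adjusted p of 0.0597. The median log2 fold change of the 9 was 0.59, against 0.45 over all 30 genes of the list, whatever their peaks, and -0.02 over all entries tested.

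The other lists were counted in the same way. Of all protein-coding genes, 34.5% had both peaks, 3.78% an NT + TPL peak only and 2.91% a TAM + TPL peak only. Of 30 immediate early and AP-1 genes, 24 had both peaks and 3 a TAM + TPL peak only, namely FOSL2, EGR3 and EGR4. Of 19 p53 targets with a TSS, 14 had both and 3 an NT + TPL peak only. These were TP53INP1 and SESN1, with a TAM + TPL peak 9 and 120 bases away, and DDB2, a damage-recognition factor of nucleotide excision repair. Of 30 epithelial and EMT genes, 7 had both peaks. TWIST2, KRT5 and KRT7 had an NT + TPL peak only and KRT6A and LAMB3 a TAM + TPL peak only. Heat shock genes (15 of 18), Src and adhesion genes (23 of 30) and ribosomal protein genes (75 of 81) were mostly in both lists. HSPA1A had a TAM + TPL peak only and PARVA an NT + TPL peak only. HSPA1A has a near-identical copy, with which its reads and peaks may be shared. Of 472 numbered ZNF genes, 15 (3.18%) had an NT + TPL and 28 (5.93%) a TAM + TPL peak only. Of 64 replication-dependent histone genes, 51 had both peaks, 5 an NT + TPL and 1 a TAM + TPL peak only. In a list that the study chose on these samples, which is no independent evidence of direction, 13 of 19 genes had both peaks, PHACTR4 and FAM111B an NT + TPL peak only, and EGR4 a TAM + TPL peak only.

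Between TAM + TPL and NT + TPL, entries were called where the adjusted p did not exceed 0.001 and the size of the log2 fold change was 1.2 or more. With 2 libraries per group, p-values measure the spread between these cultures. Of 671 tested entries with a TAM + TPL peak only, 17 (2.53%) were higher in TAM + TPL, against 0.36% of all 16948 entries tested, and 1 (0.149%) was lower, against 0.236% of all. Of 793 with an NT + TPL peak only, 5 (0.631%) were lower in TAM + TPL and 0 were higher. At an adjusted p of 0.05, 42 entries (6.26%) with a TAM + TPL peak only were higher, against 1.87% of all entries, and 12 (1.79%) were lower, against 2.42%. With an NT + TPL peak only, 22 entries (2.77%) were higher and 26 (3.28%) lower at that threshold. At 0.001, DESeq2 called 22 entries of the latter class higher and 24 lower, among 300 higher and 366 lower over all entries. The medians of the log2 fold change were 0.08 for TAM + TPL only, -0.06 for NT + TPL only, 0.02 for both and -0.02 over all entries.

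Over the lists, whatever the class of peak, genes were counted at an adjusted p of 0.05 with the required fold, where 1.87% of all entries were higher and 2.42% lower. Of 29 tested genes of the epithelial and EMT list, LAMB3 and the keratin KRT6B were higher in TAM + TPL, and 6 genes were lower, KRT5, KRT7, KRT8, KRT15, KRT17 and CLDN1, a claudin of tight junctions. Of 30 in the Src and adhesion list, the integrins ITGA2 and ITGA3 were higher and SRC, PTK2B, CAV1 and ERBB2 lower. In the IL6-STAT3 and NF-kB list 3 of 29 tested genes were higher, BCL3, CXCL3 and SOCS3, a feedback inhibitor of STAT3 signalling, and 0 lower, with a median log2 fold change of 0.25. CCN2 was lower among 30 immediate early genes, the small heat shock protein HSPB1 among 18 heat shock genes, and H1-2 and H2AC19 among 26 histone genes. Of 20 genes the study named, EPAS1 and VEGFA were higher and CLU lower, and of 415 ZNF genes 2 were higher and 3 lower. The lists of p53 targets (20 tested), TFIIH (10), RNAPII (12), initiation (21), pausing and elongation (30), G1/S and replication (30) and ribosomal proteins (78) had 0 genes called in either direction by edgeR at 0.05.

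Leaving out a library, which leaves 1 in its group, lowered these counts of genes with a peak in 1 list. The calls over all entries also fell in the same fits, though those lower in TAM + TPL hardly fell without NT + TPL replicate 2. The 17 became 11 without NT + TPL replicate 1, and 4 without TAM + TPL replicate 1 or without TAM + TPL replicate 2. The 5 became 3 without NT + TPL replicate 1 or without NT + TPL replicate 2, and 0 without TAM + TPL replicate 1 or without TAM + TPL replicate 2.

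**Figure D4:**
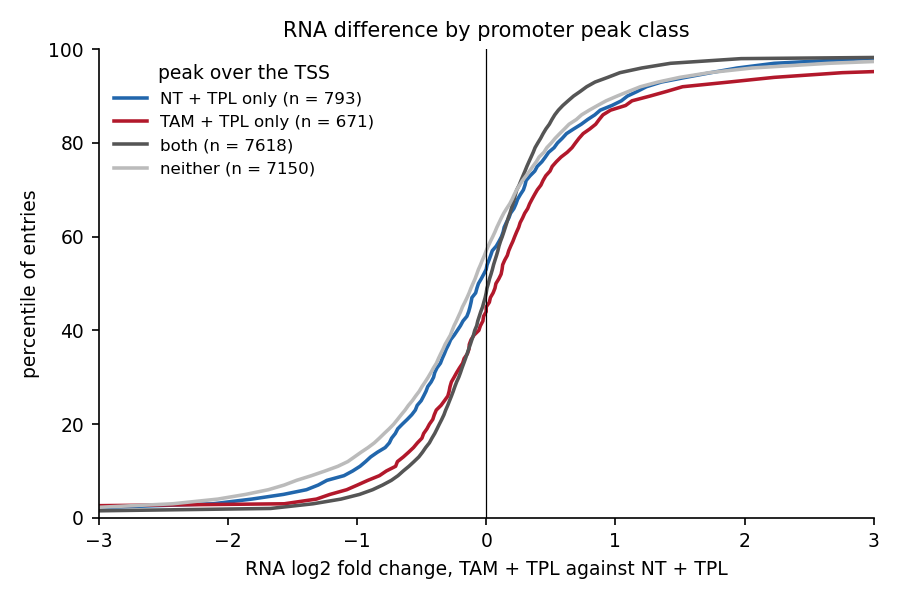
Percentiles of the RNA log2 fold change, TAM + TPL against NT + TPL, over the tested entries of 4 classes of genes, by the TPL lists in which a peak lies over the TSS. The TAM + TPL only curve lies to the right of the others in its upper part, with a median of 0.08, and the NT + TPL only curve has a median of -0.06.

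Genes with a peak in 1 list had lower RNA levels than those with both. The median in the 4 TPL libraries was 8.54 to 9.30 FPKM for genes with both peaks, 4.01 to 4.36 for NT + TPL only, 4.62 to 5.79 for TAM + TPL only and 1.99 to 2.16 for genes with neither. Among entries with a peak in either list, the share with an NT + TPL peak only was 16.0% in the lowest of 5 equal bins of mean FPKM and 3.74% in the highest. For a TAM + TPL peak only these shares were 9.27% and 6.19%. The median effect of TPL was -0.30 on the log2 scale in NT and -0.29 in TAM cells for genes with a TAM + TPL peak only, and 0.12 and -0.17 for genes with an NT + TPL peak only. Over all entries these medians were 0.09 in NT and 0.05 in TAM cells, and for genes with both peaks -0.11 and -0.13.

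Of the genes with a TAM + TPL peak only, STC1 and SERPINE2 had the smallest p. STC1, which encodes the glycoprotein hormone stanniocalcin 1, was at 2.91 and 2.64 FPKM in NT and 3.61 and 3.56 in NT + TPL. It reached 543 and 553 FPKM in TAM and 833 and 744 in TAM + TPL. It was 216-fold higher in TAM + TPL than in NT + TPL (log2 fold change 7.75, adjusted p = 7.5e-06). SERPINE2, a secreted inhibitor of serine proteases, was at 2.36 and 2.57 FPKM in NT + TPL and at 344 and 359 in TAM + TPL (log2 fold change 7.13, adjusted p = 7.5e-06). Neither gene had a peak in the NT or NT + TPL list. STC1 had a peak of 1400 bases in TAM and of 288 in TAM + TPL, and SERPINE2 peaks of 175 and 194 bases. In TAM cells without TPL, SERPINE2 was at 148 and 153 FPKM (log2 fold change with TPL 1.18, adjusted p = 0.000911), just under the fold of a call.

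TNC, the matrix glycoprotein tenascin C, was at 0.69 and 1.05 FPKM in NT + TPL and at 134 and 138 in TAM + TPL (log2 fold change 7.25, adjusted p = 7.22e-05). SERPINB3, an intracellular serpin known as squamous cell carcinoma antigen, was at 23.5 and 21.1 FPKM in NT + TPL and at 675 and 653 in TAM + TPL (log2 fold change 4.87, adjusted p = 2.45e-05). Its neighbour SERPINB4 was also called higher, and the 2 genes are close copies that may share reads. Like STC1, TNC and SERPINB3 had a TAM peak and no NT peak, and the SERPINB3 peak was 5875 bases wide in TAM and 571 in TAM + TPL. In these 4 genes the NT + TPL and TAM + TPL libraries did not overlap.

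NT5E and LAMB3 differed from these 4 in having a peak in NT cells as well. NT5E, which encodes the ectonucleotidase CD73, was at 10.98 and 14.35 FPKM in NT and 2.92 and 3.39 in NT + TPL, against 177 and 197 in TAM and 201 and 235 with TPL. It was higher in TAM + TPL than in NT + TPL by 6.09 on the log2 scale (adjusted p = 5.19e-05). LAMB3, the beta-3 chain of laminin-332, was at 266 and 286 FPKM in NT and 42.5 and 27.0 in NT + TPL, against 488 and 396 in TAM and 306 and 299 with TPL (log2 fold change 3.10, adjusted p = 0.000534). The LAMB3 call was lost without NT + TPL replicate 2, TAM + TPL replicate 1 or TAM + TPL replicate 2, when its adjusted p was at most 0.00889. Its peak was 46310 bases wide in NT, 44405 in TAM and 500 in TAM + TPL, and was not listed in NT + TPL. The NT5E peak was 510 bases wide in NT, 1069 in TAM and 267 in TAM + TPL.

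TNFRSF6B, the soluble decoy receptor for Fas ligand, was at 58.3 and 113 FPKM in NT + TPL and at 2799 and 2668 in TAM + TPL (log2 fold change 4.96, adjusted p = 0.000642). An NT + TPL peak lay 550 bases from its TSS. The other genes of this class called higher, named here because they were called, had log2 fold changes of 1.67 to 6.36. They include ITGA5, the alpha-5 integrin (2.08), LCP1, the actin bundler L-plastin (2.34), MLKL, the effector of necroptosis (2.71), ANTXR2 (2.89), SERPINB1 (3.76) and the non-coding RNA LINC00520 (6.36). S100A8, a calcium-binding protein of calprotectin, was at 51.0 and 112 FPKM in NT + TPL and at 2426 and 2274 in TAM + TPL, and just missed a call (log2 fold change 4.81, adjusted p = 0.0012). Its values are those of 1 of its 5 entries. The calls of TNC and TNFRSF6B were lost without TAM + TPL replicate 1 and without TAM + TPL replicate 2, and S100A8 passed without NT + TPL replicate 2.

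**Figure D5:**
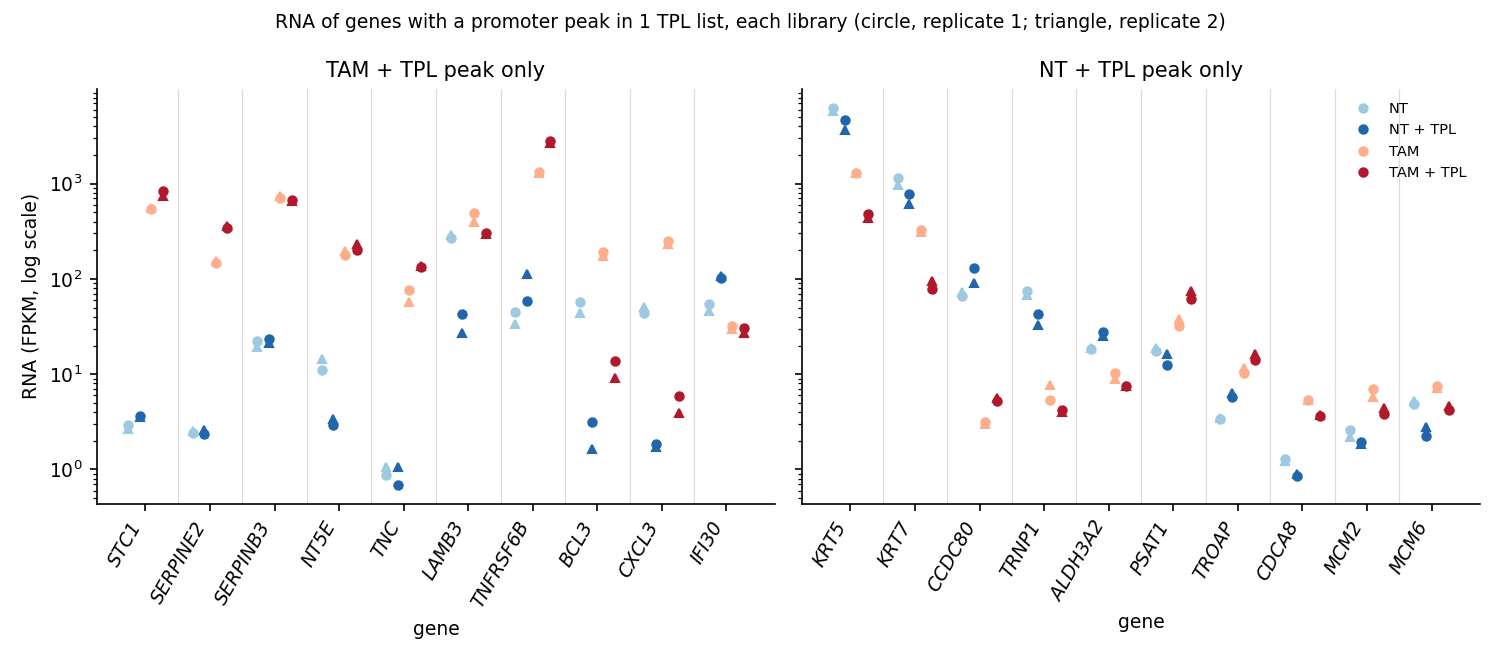
RNA level in FPKM (log axis) of 10 genes with a TAM + TPL peak only (left) and 10 with an NT + TPL peak only (right), with 1 point per library and the 4 groups as colours. STC1 lies at 3.61 and 3.56 FPKM in NT + TPL and at 833 and 744 in TAM + TPL, and KRT5 lies at 4630 and 3677 in NT + TPL and at 475 and 434 in TAM + TPL.

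The 5 genes with an NT + TPL peak only and lower RNA in TAM + TPL include 2 keratins. KRT5, the keratin of basal epithelial cells, was at 6250 and 5776 FPKM in NT and 4630 and 3677 in NT + TPL. It was at 1308 FPKM in both TAM libraries and at 475 and 434 with TPL (log2 fold change against NT + TPL -3.21, adjusted p = 8.48e-05). KRT7, a keratin of simple epithelia, was at 774 and 608 FPKM in NT + TPL and at 78.08 and 94.96 in TAM + TPL (log2 fold change -3.02, adjusted p = 0.000236). Both genes had wide peaks in DMSO, of 8264 bases in NT and 7878 in TAM for KRT5 and of 27366 and 4188 for KRT7. Their peaks in NT + TPL were 506 and 181 bases wide. With TPL, KRT5 changed by -0.54 on the log2 scale in NT (adjusted p = 0.0185) and by -1.57 in TAM (adjusted p = 0.000531), and KRT7 by -0.63 (adjusted p = 0.0229) and -1.93 (adjusted p = 0.000573). The difference between the states in these TPL effects did not pass the test (adjusted p = 0.131 for both genes).

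TRNP1, a nuclear protein known from the developing cortex, was at 42.5 and 33.0 FPKM in NT + TPL and at 4.25 and 4.02 in TAM + TPL (log2 fold change -3.21, adjusted p = 0.00038). CCDC80, a secreted matrix protein, was at 130 and 91.5 FPKM in NT + TPL and at 5.23 and 5.63 in TAM + TPL (log2 fold change -4.41, adjusted p = 8.48e-05). A TAM + TPL peak lay 17 bases from the CCDC80 TSS, and 24 bases from that of ALDH3A2, the fatty aldehyde dehydrogenase that was the last of the 5 genes called lower (log2 fold change -1.83, adjusted p = 0.000535). With both left out, 3 genes with an NT + TPL peak only were called lower. The calls of KRT5, KRT7 and CCDC80 were lost without TAM + TPL replicate 1 and without TAM + TPL replicate 2, and those of TRNP1 and ALDH3A2 without any of the 4 TPL libraries. Their adjusted p stayed at most 0.0165 in all alternatives.

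Peak and RNA went opposite ways at other genes. PSAT1, an enzyme of serine synthesis, had a peak of 1161 bases in NT and 470 in NT + TPL and none in TAM or TAM + TPL. Its RNA was at 17.4 and 19.0 FPKM in NT and 12.6 and 16.1 in NT + TPL, against 31.7 and 37.5 in TAM and 61.5 and 75.2 with TPL. It was thus higher in TAM + TPL than in NT + TPL (log2 fold change 2.24, adjusted p = 0.00163), and rose with TPL in TAM cells by 0.94 (adjusted p = 0.0131). CDCA8, the borealin subunit of the chromosomal passenger complex, had a peak in the NT and NT + TPL lists only. Its RNA was at 0.86 and 0.89 FPKM in NT + TPL and at 3.66 and 3.75 in TAM + TPL (log2 fold change 2.07, adjusted p = 0.00669). TROAP, a protein of the mitotic spindle, was at 5.77 and 6.35 FPKM in NT + TPL and at 14.2 and 16.4 in TAM + TPL (log2 fold change 1.71, adjusted p = 0.00588, and 0.0547 without TAM + TPL replicate 1). A TAM + TPL peak lay 184 bases from the TROAP TSS.

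IFI30, a lysosomal thiol reductase induced by interferon, showed the reverse. It had a peak of 144 bases in TAM + TPL and in no other list. Its RNA was at 54.5 and 45.5 FPKM in NT and 103 and 107 in NT + TPL, against 32.2 and 30.1 in TAM and 30.5 and 27.2 with TPL. It was lower in TAM + TPL by 1.90 on the log2 scale, with an adjusted p of 0.001 at the limit of a call, and lost the call when any of the 4 TPL libraries was left out. GBP1, an interferon-induced GTPase, also had a TAM + TPL peak only, of 300 bases, with 17.8 and 15.5 FPKM in NT + TPL and 5.31 and 6.09 in TAM + TPL (log2 fold change -1.57, adjusted p = 0.00261). ESRRA, an orphan nuclear receptor of energy metabolism, was at 11.7 and 11.8 FPKM in NT + TPL and at 4.25 and 5.55 in TAM + TPL (log2 fold change -1.28, adjusted p = 0.00695, and 0.063 without TAM + TPL replicate 1).

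The most abundant RNAs with a peak in 1 list only include IFITM3, KRT6A and SFN. IFITM3, an interferon-induced membrane protein with a TAM + TPL peak of 643 bases, was at 4370 and 3878 FPKM in NT + TPL and at 4579 and 3681 in TAM + TPL. KRT6A, a keratin of activated keratinocytes with a TAM + TPL peak of 344 bases, was at 2265 and 1450 FPKM and at 2400 and 2190. In both genes the libraries of the 2 states overlapped, with adjusted p values of 0.971 and 0.455. Both had peaks of 3545 to 11344 bases in the NT and TAM lists. SFN, the 14-3-3 sigma protein, had an NT + TPL peak of 2789 bases and a TAM + TPL peak that lay 773 bases from the TSS. Its RNA was at 895 and 836 FPKM in NT + TPL and at 468 and 355 in TAM + TPL (log2 fold change -1.10, adjusted p = 0.0186), and the adjusted p was between 0.0523 and 0.152 when any of the 4 TPL libraries was left out.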

How the data were processed

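RNAPII ChIP-Seq and RNA-Seq of the 4 conditions were used as deposited. For ChIP-Seq the authors used SOAP2 for alignment to hg19 and, against input, MACS for peaks (version 1.4.2 in the submitters' processing notes). HOMER is also named in those notes. The deposited lists give start and end only, the depth behind them is unknown, and how the 2 samples of a condition entered its list is not given in the sources used here. For RNA-Seq the authors enriched poly-A RNA, aligned reads to reference transcripts with Bowtie2 and estimated expression with RSEM. The deposited expected counts are RSEM estimates per gene, not normalized, and genes without a read, which the tables leave out, were taken as 0, while the FPKM values deposited beside them are scaled by the authors to transcript length and library size. BWA is also named in the processing notes.

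Of 23604 entries in the RNA tables, 23484 had a symbol and 21694 a gene with a canonical TSS in GENCODE release 44 placed on GRCh37. After rounding, expected counts went into the quasi-likelihood test of edgeR 4.0.16 (R 4.3.3), with TMM scaling, filterByExpr on the groups and p-values adjusted by Benjamini-Hochberg over 16948 entries, with 4 groups of 2 libraries in 1 fit without a replicate block. The contrast was TAM + TPL against NT + TPL, with TPL against DMSO in each state and the difference of these effects for single genes. Libraries held 7461309 to 8349448 expected counts, and the biological coefficient of variation was 0.315. On simulated data with 16948 entries, 30 of 98 changes of size 3 and 15 of 93 of size 2 on the log2 scale were called, and 0 of 16188 unchanged entries. Peak lists were compared in Python 3.11.15 with pandas 2.3.3 and checked with bedtools 2.31.1, intervals of shares came from scipy 1.17.1, and plots from matplotlib 3.10.9. Positions in the text count from 1.

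The genes named were those the study names, the 5 with the smallest p per single-list class and direction, the 5 most abundant protein-coding genes per class, those at the 5 widest peaks per list and at the 3 largest width differences each way, and single-list members of the gene lists. A mean of at least 1 FPKM was required for the second group. Genes called in a single-list class but outside this rule were chosen after their values were seen. The members, lists and thresholds were chosen with earlier results of these data known. Alternatives were other normalizations and filters, DESeq2 1.42.0, limma 3.58.1 on log2(FPKM + 1) and log2(FPKM + 0.1), a fit of the 2 TPL groups, a replicate block, other thresholds, other definitions of overlap and TSS, and leaving out each TPL library. Those added after seeing the data were counts summed over the entries of a gene, classes without a peak of the other list within 1000 bases, peaks of at least 500 bases against all peaks, and the alternatives for the difference of TPL effects. The input and single ChIP-Seq samples were not used here. 1 gene and 1 promoter sequence are not reported here.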

Additional observations from a re-analysis of the deposited data

Results flagged for a closer look

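For NT5E and LAMB3, both with a TAM + TPL and no NT + TPL peak over the TSS, the effect of TPL on RNA differed between the states by edgeR's test of the difference itself. The effect in TAM minus that in NT was 2.19 on the log2 scale for NT5E and 2.41 for LAMB3 (adjusted p = 0.0492 for each). NT5E fell with TPL in NT cells (adjusted p = 0.000725), while the effect in TAM cells was 0.19 (adjusted p = 0.435). LAMB3 fell with TPL in NT cells (adjusted p = 0.000323), with an effect of -0.59 in TAM cells (adjusted p = 0.0638). In 15 alternatives chosen after seeing the data, each difference kept its sign, and 6 of 15 passed an adjusted p of 0.05 for either gene, with adjusted p values up to 0.202 for NT5E and 0.215 for LAMB3. Without any of the 8 libraries in turn the difference for NT5E missed 0.05, and that for LAMB3 passed only without NT + TPL replicate 1 (adjusted p = 0.0359) or NT + TPL replicate 2 (adjusted p = 0.0432).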

How the results depend on the processing

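No called gene named changed sign. The calls higher and lower in TAM + TPL numbered 61 and 40, of which 17 higher had a TAM + TPL peak only and 5 lower an NT + TPL peak only. In that order, these 4 counts were 111, 161, 27 and 12 with at least 10 counts in every library, 300, 366, 43 and 24 with DESeq2, 317, 410, 42 and 26 at an adjusted p of 0.05, and 175, 234, 31 and 15 with counts summed over the entries of a gene. Under these 4 settings lower calls outnumbered higher ones, the reverse of 61 and 40, as they did with no filter on low counts (76 higher and 79 lower) and without NT + TPL replicate 2 (36 and 37). The lower counts were 79 and 8 with no filter on low counts, and 79 and 8 with limma on log2(FPKM + 1). With 1 library left out they ranged from 6 to 36, 0 to 37, 4 to 13 and 0 to 3. A fit of the 2 TPL groups only, with fewer samples, gave 0 for each, with 235 higher and 262 lower at 0.05 and 2788 entries at an unadjusted p under 0.05. With a replicate block the counts were 21, 9, 8 and 2. The replicate numbers gave no sign of pairing, as deviations of same-numbered libraries correlated between -0.135 and 0.0501. With 2 libraries per group, that check cannot exclude pairing. The median log2 fold change of genes with an NT + TPL peak only, -0.06, was -0.00669 with upper quartile normalization, -0.0158 with DESeq2 and -0.0473 to 0.00037 with 1 library left out, where it lost its sign without either NT + TPL replicate. That of genes with a TAM + TPL peak only, 0.08, ranged from 0.0386 to 0.18 with 1 library left out. Without genes that had a peak of the other list within 1000 bases, the lower calls with an NT + TPL peak only were 3 and their median -0.12.

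The share of NT + TPL peaks that overlapped a TAM + TPL peak was 71.6% with 50% reciprocal overlap, 84.9% by centres within 500 bases, 68.3% when both lists were limited to peaks of at least 500 bases and 95.8% when only its own list was. For TAM + TPL peaks these shares were 73.2%, 87.9%, 87.9% and 97.6%. The median width difference was -65 bases for pairs by 50% reciprocal overlap and -92 bases for peaks of at least 500 bases. Apart from settings that change the samples, thresholds or peaks themselves, the cause was not tested. Of 196 values of the 14 called named genes under the alternatives, 52 missed the call, and 0 changed sign. Peak lists without heights or replicates limit all comparisons of peaks, and 2 libraries per group limit those of RNA.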

Other observations

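Genes with a peak over the TSS in both TPL lists also included calls between the states. The lysosomal proteases CTSL (log2 fold change 5.41, adjusted p = 2.45e-05) and CTSB (3.20, adjusted p = 5.63e-05) were higher in TAM + TPL than in NT + TPL by edgeR's test, as were CD68, a lysosomal membrane protein (2.39, adjusted p = 0.000236), and the angiogenic factor VEGFA (1.75, adjusted p = 0.000655). TGFBI, a matrix protein induced by TGF-beta, was lower (-2.42, adjusted p = 0.000178). In all, 8 of the 61 higher calls and 3 of the 40 lower calls had both peaks, and 36 and 27 had neither. The VEGFA peak was 307 bases wide in NT + TPL and 321 in TAM + TPL, against 4267 in NT and 5784 in TAM.

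METTL4, a methyltransferase gene with an NT + TPL peak only, was listed at 0 FPKM in both NT + TPL libraries and at 0.89 and 0.75 in TAM + TPL. Against a floor of 3 counts per library it was at least 7.68-fold higher in TAM + TPL, by the values of 1 of its 2 entries.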
